A study of Arabidopsis thaliana with 12 samples.

Results

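Sieve elements are the conducting cells of the phloem, and 7 Arabidopsis genes that act in their differentiation are described here, of the 32833 loci counted. They are the transcription factor genes APL (AT1G79430), NAC045 (AT3G03200) and NAC086 (AT5G17260), the exonuclease gene NEN4 (AT4G39810), the P-protein genes SEOR1 (AT3G01680) and SEOa (AT3G01670), and the callose synthase gene CALS7 (AT1G06490). They were picked out by locus code, from a list made with earlier results of these data known, so the counts of members called below are descriptions of chosen genes. All 7 were found in the count files, and all 7 passed the filter on low counts.

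RNA was sequenced from hypocotyls and the top 5 mm of the root, from plants grown in long days for 3 weeks. The 4 genotypes had 3 biological replicates each. Wild type was the Columbia-0 ecotype. The er erl2 double mutant carried er-105 and erl2-1, in receptor kinases of the ERECTA family. The pxf triple mutant carried pxy-3, pxl1-1 and pxl2-1, in PXY, the receptor kinase that perceives the TDIF peptide in the cambium, and its relatives PXL1 and PXL2. The pxf er erl2 quintuple mutant carried all 5 alleles. The mutant lines came from laboratory stocks, and the number of plants per replicate is not given in the sources used here. The design asks which transcripts change in radial growth when either receptor family, or both, is lost.

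A sieve element matures by losing its nucleus and most of its organelles while it stays alive, and by opening pores in the end walls, the sieve plates, through which sap moves from cell to cell. APL encodes a MYB coiled-coil factor needed for phloem identity. In the root protophloem it acts upstream of NAC045 and NAC086, a redundant pair that directs the clearing of nucleus and cytosol, in part through the NEN exonuclease genes. The SEO proteins form the P-protein filaments of mature sieve elements, and CALS7 deposits callose around developing sieve plate pores.

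Library totals ranged from 10507590 to 14716123 counts, and replicates of a genotype correlated at r = 0.977 to 0.990 on log2 CPM (CPM, TMM-scaled counts relative to the library total). Replicate 3 of pxf er erl2 stood apart over all loci, at r = 0.977 with both other replicates, which correlated at 0.990 with each other. PXY averaged 249 CPM in wild type, against 349 in er erl2, 22.9 in pxf and 77.3 with all 5 alleles. ER averaged 38.3, 9.57, 62.5 and 9.33 CPM in the same order. Both pxf lines carry pxy-3, yet PXY was higher in pxf er erl2 than in pxf (log2 fold change 1.76, SE 0.084, adjusted p = 1.14e-07 in edgeR's quasi-likelihood test). The cause was not tested. PXL1, PXL2 and ERL2 had at most 14 counts in any library, too few to check their labels. Cambium, xylem and companion cell genes were present in wild type, as the tissue label would have it, with summed levels given further on. In whole tissue, fewer cells of a type and less RNA per cell cannot be told apart.

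In the quintuple mutant, 6 of the 7 members were called higher than in wild type, where 19.9% of all tested loci were, and the exception was NEN4. APL, NAC045, SEOR1, SEOa and CALS7 had their genotype means in the rising order wild type, er erl2, pxf, pxf er erl2, an order that 10.8% of the 19236 tested loci shared. A level per kilobase of exon allows comparison between genes. In wild type that level was highest for SEOR1, at 46.7 ± 2.33 CPM per kb (SD, n = 3), followed by SEOa at 37.5 ± 4.09. APL stood at 8.73 ± 0.551 CPM per kb, CALS7 at 5.62 ± 0.632 and NEN4 at 1.31 ± 0.505. The NAC genes were lowest, NAC086 at 0.684 ± 0.110 CPM per kb and NAC045 at 0.281 ± 0.0971. The 2 P-protein genes were thus the most abundant per length and the 2 NAC genes the least.

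**Figure D1:**
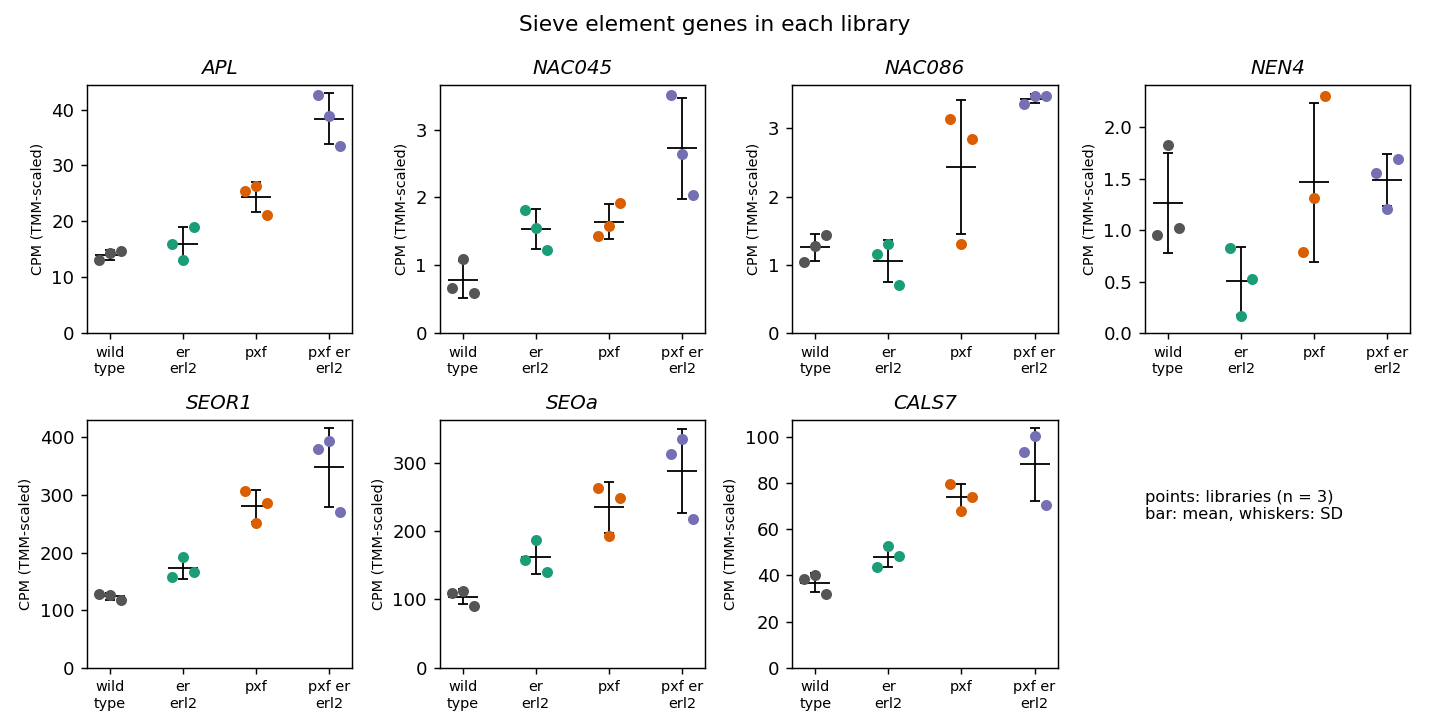
TMM-scaled CPM of the 7 sieve element genes, with genotype on the x axis and CPM on the y axis from 0; points are libraries, bars the mean of 3 and whiskers the SD. APL, SEOR1, SEOa and CALS7 step up from wild type to pxf and pxf er erl2, whereas the NEN4 libraries of wild type, pxf and pxf er erl2 overlap.

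APL lies at chr1:29877228-29879279 on the minus strand (TAIR10.1). It stood at 13.0, 14.4 and 14.6 CPM in the wild-type libraries, at 15.8, 13.0 and 19.0 in er erl2, at 25.4, 26.3 and 21.2 in pxf, and at 42.6, 38.9 and 33.5 in pxf er erl2. Wild type and er erl2 overlapped, all pxf libraries lay above both, and all pxf er erl2 libraries lay above all of pxf. APL was 1.73-fold higher in pxf than in wild type (log2 fold change 0.79, SE 0.14, adjusted p = 0.00180 in edgeR's quasi-likelihood test). It was 2.74-fold higher in pxf er erl2 than in wild type (log2 1.45, SE 0.14, adjusted p = 7.32e-06). The er erl2 mutations alone gave a log2 difference of 0.18 (SE 0.14, edgeR adjusted p = 0.408), with an interval of -0.13 to 0.50. In the pxf background they gave 0.66 (SE 0.13, edgeR adjusted p = 0.00641), and APL was the only member called in that comparison. APL was called in 5 comparisons, those of each pxf line with wild type and with er erl2 and that of the pxf lines with each other, and no call was lost when any 1 library was left out.

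NAC045, at chr3:734892-738629 on the minus strand, was the member of lowest level per length, so its values rest on few counts. It had 7, 12 and 7 counts in wild type (0.664, 1.09 and 0.594 CPM), 22, 19 and 14 in er erl2 (1.82, 1.55 and 1.23 CPM), 20, 23 and 25 in pxf (1.43, 1.58 and 1.92 CPM), and 45, 35 and 24 in pxf er erl2 (3.51, 2.64 and 2.03 CPM). All mutant libraries lay above all wild-type libraries, er erl2 and pxf overlapped each other, and pxf er erl2 lay above both. It passed the filter through the mutant libraries, since 1 of the 3 wild-type libraries was above the level the filter asks for. The rise in pxf er erl2 over wild type was 3.46-fold (log2 1.79, SE 0.33, edgeR adjusted p = 0.00102). The rise in pxf over wild type passed narrowly (log2 1.06, SE 0.34, edgeR adjusted p = 0.0436). Leaving out any 1 of 9 libraries ended that call, with adjusted p from 0.0511 to 0.145, and DESeq2 gave 0.0617. In er erl2 against wild type the difference was 0.96 (SE 0.35, edgeR adjusted p = 0.0730).

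NAC086, at chr5:5675184-5678175 on the minus strand, shares 77.6% of 1359 aligned coding bases with NAC045. It stood at 1.04, 1.28 and 1.44 CPM in wild type, at 1.16, 1.3 and 0.702 in er erl2, at 3.14, 1.31 and 2.84 in pxf, and at 3.35, 3.47 and 3.47 in pxf er erl2. The er erl2 libraries overlapped wild type, replicate 2 of pxf lay among the wild-type values, and pxf er erl2 lay above all other libraries. NAC086 rose 2.71-fold in pxf er erl2 over wild type (log2 1.44, SE 0.33, edgeR adjusted p = 0.00449) and 3.22-fold over er erl2 (log2 1.69, SE 0.33, edgeR adjusted p = 0.00183). In pxf against wild type the log2 difference was 0.94 (SE 0.34, edgeR adjusted p = 0.0660). Without replicate 2 of pxf it was 1.25 and the call was made (edgeR adjusted p = 0.0101). In er erl2 against wild type NAC086 gave -0.25 (SE 0.38), where NAC045 gave 0.96. No stretch of 50 exonic bases of either gene occurred elsewhere in the genome, so sequence of that length tells the pair apart.

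NEN4, at chr4:18474481-18475804 on the minus strand, did not follow the other members. It had 10, 20 and 12 counts in wild type (0.948, 1.82 and 1.02 CPM), 10, 2 and 6 in er erl2 (0.825, 0.163 and 0.527 CPM), 11, 19 and 30 in pxf (0.784, 1.31 and 2.30 CPM), and 20, 16 and 20 in pxf er erl2 (1.56, 1.21 and 1.69 CPM). The er erl2 libraries lay below all wild-type libraries, replicate 1 of er erl2 fell within the pxf range, and the other 3 genotypes overlapped. NEN4 passed the filter through the other genotypes, since 1 of the 3 er erl2 libraries was above the level the filter asks for. Against wild type, NEN4 gave -1.31 for er erl2 (SE 0.55, edgeR adjusted p = 0.119), 0.20 for pxf (SE 0.46, edgeR adjusted p = 0.790) and 0.23 for pxf er erl2 (SE 0.47, edgeR adjusted p = 0.731). The interval of the last difference, -0.78 to 1.24, holds both a fall and a rise of more than 1.5-fold. NEN4 was higher in pxf er erl2 than in er erl2 (log2 1.54, SE 0.53, edgeR adjusted p = 0.0400). That call ended when er erl2 replicate 2 or 3, pxf replicate 2 or any pxf er erl2 replicate was left out (adjusted p from 0.0502 to 0.139).

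SEOR1 and SEOa are neighbours on the plus strand of chromosome 3, SEOa at chr3:247192-250472 and SEOR1 at chr3:251868-255513, with 1395 bases between them. Their coding sequences share 61.8% of 1998 aligned bases, and no stretch of 50 exonic bases of either occurred elsewhere in the genome. CALS7 lies at chr1:1978378-1989409 on the plus strand. The 250 bases before the annotated start of each gene are shown because these 3 members moved most closely together (RefSeq, TAIR10.1, plus strand; SEOR1 chr3:251618-251867, SEOa chr3:246942-247191, CALS7 chr1:1978128-1978377). Capitals mark CACG on either strand, a core of binding sites described for NAC factors.
SEOR1: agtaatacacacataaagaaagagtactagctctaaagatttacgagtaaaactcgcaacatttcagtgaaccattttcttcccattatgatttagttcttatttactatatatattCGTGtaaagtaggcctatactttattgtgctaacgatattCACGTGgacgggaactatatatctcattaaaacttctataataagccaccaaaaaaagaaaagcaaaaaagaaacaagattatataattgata
SEOa: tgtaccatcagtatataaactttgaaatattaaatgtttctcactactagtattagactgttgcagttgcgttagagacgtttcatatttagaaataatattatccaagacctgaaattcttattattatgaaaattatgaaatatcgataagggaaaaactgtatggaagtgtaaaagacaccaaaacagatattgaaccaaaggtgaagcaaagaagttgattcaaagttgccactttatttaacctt
CALS7: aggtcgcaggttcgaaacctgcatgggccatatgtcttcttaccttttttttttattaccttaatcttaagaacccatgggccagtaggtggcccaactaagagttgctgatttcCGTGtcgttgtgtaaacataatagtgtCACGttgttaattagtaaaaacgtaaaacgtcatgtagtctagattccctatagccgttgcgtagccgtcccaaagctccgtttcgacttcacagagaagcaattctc

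The SEOR1 window held 3 matches to CACG, counting both strands, of which 2 overlap in a CACGTG; the CALS7 window held 2 and the SEOa window none. NAC086 had 1 match in its own window, so 3 of the 7 members had the motif, against 45.6% of the windows of 27443 protein-coding nuclear genes. GNATATNC, the P1BS element bound by PHR1 of the MYB coiled-coil family, was searched on both strands as well. It was in none of the 7 windows and in 5.46% of all windows. These matches describe letters in a window and say nothing of binding.

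SEOR1 stood at 129, 126 and 117 CPM in wild type, at 159, 192 and 167 in er erl2, at 307, 252 and 287 in pxf, and at 381, 393 and 270 in pxf er erl2. All libraries of er erl2 lay above wild type and all of pxf above er erl2, whereas replicate 3 of pxf er erl2 fell among the pxf values. The rise was 1.39-fold in er erl2 over wild type (log2 0.48, SE 0.13, edgeR adjusted p = 0.0272), 2.27-fold in pxf and 2.81-fold in pxf er erl2. SEOa stood at 109, 112 and 91.1 CPM in wild type, at 158, 187 and 140 in er erl2, at 263, 193 and 248 in pxf, and at 312, 334 and 217 in pxf er erl2. Its groups separated in the same way, with replicate 3 of pxf er erl2 among the pxf values. SEOa was 1.55-fold higher in er erl2 than in wild type (log2 0.63, SE 0.18, edgeR adjusted p = 0.0306), 2.25-fold higher in pxf and 2.77-fold higher in pxf er erl2. The ratio of SEOR1 to SEOa counts was 1.2 ± 0.0805 in wild type, with er erl2 at 1.07 ± 0.103, pxf at 1.21 ± 0.0831 and the quintuple mutant at 1.21 ± 0.0325 (SD, n = 3), so the 2 genes kept about the same proportion in every genotype. Without any 1 of the wild-type libraries, or without replicate 2 of er erl2, neither SEOR1 nor SEOa was called in er erl2 against wild type (edgeR adjusted p from 0.0586 to 0.107).

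CALS7 stood at 38.3, 39.9 and 32.1 CPM in wild type, at 43.7, 52.6 and 48.2 in er erl2, at 79.4, 67.8 and 74.0 in pxf, and at 93.4, 100.4 and 70.3 in pxf er erl2. Its er erl2 libraries all lay above wild type and its pxf libraries above er erl2, and again replicate 3 of pxf er erl2 fell among the pxf values. CALS7 was 2.01-fold higher in pxf than in wild type (log2 1.00, SE 0.13, edgeR adjusted p = 0.000330) and 2.40-fold higher in pxf er erl2 (log2 1.26, SE 0.13, edgeR adjusted p = 2.04e-05). In er erl2 the difference of 0.39 (SE 0.13) had an edgeR adjusted p of 0.0602. It was called by DESeq2 at 0.0459, with only the groups compared at 0.0315, with the replicate number as a block at 0.0480, and without replicate 2 or 3 of pxf er erl2 at 0.0464 and 0.0113.

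**Figure D2:**
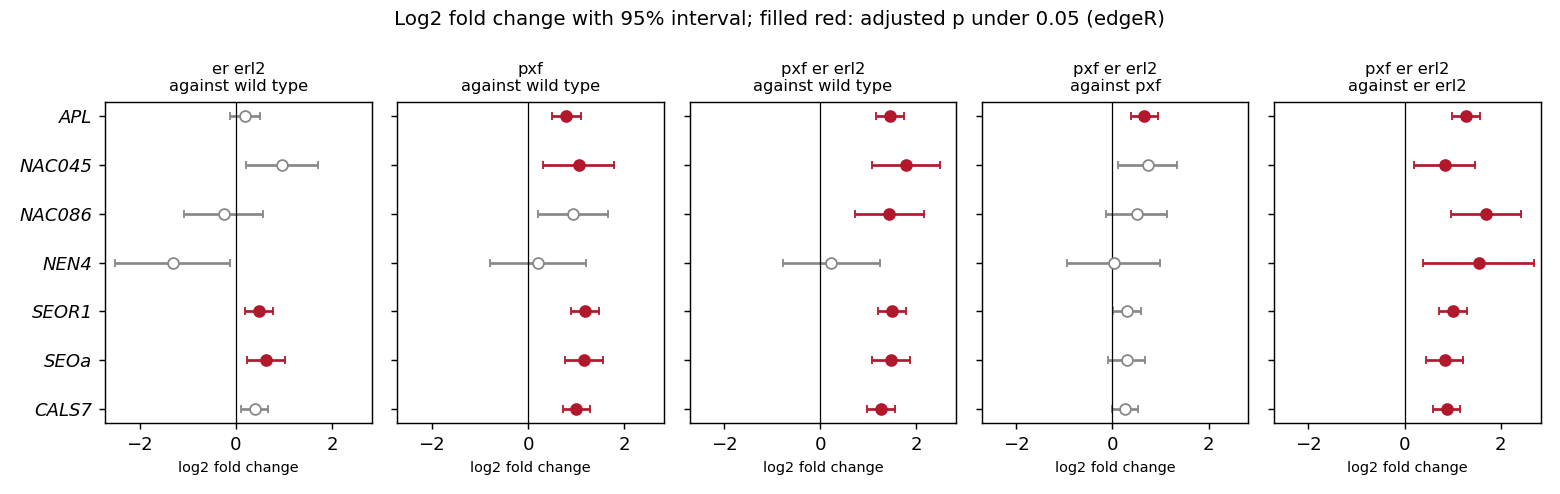
Log2 fold change (x axis) of each member (rows) in 5 comparisons, with 95% intervals; filled red points passed an adjusted p under 0.05 in edgeR and open grey points did not. APL is the only filled point in pxf er erl2 against pxf, and NEN4 is filled in pxf er erl2 against er erl2 alone.

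Counted by comparison, 2 of the 7 members were called higher in er erl2 than in wild type and none lower, where 10.3% of all tested loci were called higher and 8.44% lower. In pxf against wild type 5 were called higher, where 13.0% of all loci were called higher and 7.97% lower. In pxf er erl2 against wild type 6 were called higher, where 19.9% of all loci were called higher and 16.4% lower. These 3 comparisons share the wild-type libraries, so the counts are not independent of one another. NAC045, called in both pxf lines, had passed the filter through the mutant libraries, so its calls over wild type are descriptions only. The median log2 fold change of the members was 0.39, 1.00 and 1.45 in turn, and that of all tested loci was 0.02, 0.01 and -0.00. The count in er erl2 was 0 without any 1 of the wild-type libraries or er erl2 replicate 2, and 1 without er erl2 replicate 1 or 3.

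Between mutants, all 7 members were called higher in pxf er erl2 than in er erl2, where 18.0% of all loci were, with a median log2 fold change of 1.01 against 0.00 for all loci. NAC045 passed narrowly there (edgeR adjusted p = 0.0431), and leaving out any 1 of 9 libraries ended the call (adjusted p from 0.0502 to 0.177), as did DESeq2 at 0.0638. NEN4 passed narrowly as well (edgeR adjusted p = 0.0400), a call lost without any 1 of 6 libraries and with the replicate number as a block. The count of 7 was 6 with DESeq2 and 5 with that block. NEN4 had passed the filter through genotypes other than er erl2, so its call over er erl2 is a description only. In pxf against er erl2, 5 members were called higher, where 14.1% of all loci were, and the 2 others were NAC045 (log2 0.10, SE 0.30) and NEN4 (1.51, SE 0.53, edgeR adjusted p = 0.0512). NEN4 was called there by DESeq2 at 0.0364, and by edgeR without replicate 1 of er erl2 or of pxf, at 0.0390 and 0.0287. That count was 3 without er erl2 replicate 3 or pxf replicate 3, since NAC086 and SEOa then missed the threshold (edgeR adjusted p from 0.0741 to 0.137). In pxf er erl2 against pxf, 1 member was called higher, where 5.07% of all loci were, and that member was APL. The log2 differences of the 6 others there ran from 0.03 for NEN4 to 0.73 for NAC045. SEOR1 (log2 0.31, interval 0.02 to 0.59) and CALS7 (0.26, interval -0.02 to 0.53) were called there without replicate 3 of pxf er erl2, at 0.46 and 0.40 (edgeR adjusted p = 0.00584 and 0.0208). The count then rose to 3.

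Whether the er erl2 mutations act differently with and without the PXY family was tested as an interaction, that is, pxf er erl2 minus pxf on the log2 scale, less the difference between er erl2 and wild type. No member was called by edgeR or DESeq2, where 9.45% of all loci were called in either direction by edgeR. At an unadjusted p under 0.05 in edgeR there was 1 member, APL, whose interaction was 0.47 (interval 0.05 to 0.89). Its edgeR adjusted p was 0.145. The intervals of SEOR1 (-0.17, from -0.58 to 0.23), SEOa (-0.34, from -0.88 to 0.21) and CALS7 (-0.13, from -0.53 to 0.26) all included 0. For the low-count genes the intervals were wide, from -1.19 to 0.74 for NAC045, from -0.29 to 1.79 for NAC086 and from -0.20 to 2.87 for NEN4. APL, SEOR1, SEOa and CALS7 thus all rose in pxf over wild type, while in pxf er erl2 over pxf the call was made for APL alone and its interaction was not called.

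Within a genotype, SEOR1, SEOa and CALS7 deviated in the same direction in most libraries, most of all in replicate 3 of pxf er erl2, the library that stood apart over all loci. Over all tested loci, its deviations from the genotype mean correlated at 0.497 with those of pxf replicate 2, so deviations shared by these libraries are not particular to the 3 genes. Deviations of wild-type replicate 3 correlated at 0.270 with those of pxf er erl2 replicate 3 and at 0.252 with those of pxf replicate 2. Replicate 3 of pxf er erl2 lay below its genotype mean by -0.35 for SEOR1, -0.38 for SEOa and -0.31 for CALS7 on the log2 scale. Replicate 2 of pxf lay at -0.16, -0.27 and -0.12, and replicate 2 of er erl2 at 0.16, 0.22 and 0.13. Wild-type replicate 3 lay at -0.08, -0.19 and -0.19. Over the 12 libraries, log2 CPM of SEOR1 and CALS7 had a Pearson r of 0.995 and a Spearman rho of 0.993, and the deviations from genotype means had an r of 0.941. SEOR1 and SEOa had an r of 0.983, with 0.931 for the deviations. APL and SEOR1 had an r of 0.896 over all libraries and 0.0399 for the deviations. Without pxf er erl2 replicate 3 the deviations had an r of 0.871 for SEOR1 with CALS7, 0.888 for SEOR1 with SEOa and -0.59 for SEOR1 with APL. Without pxf replicate 2 as well, over 10 libraries, these were 0.863, 0.811 and -0.53, settings chosen after seeing the data. Wild-type replicate 3 was kept in both settings. The libraries share depth, scaling and 4 genotype means, so these values are descriptions.

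**Figure D3:**
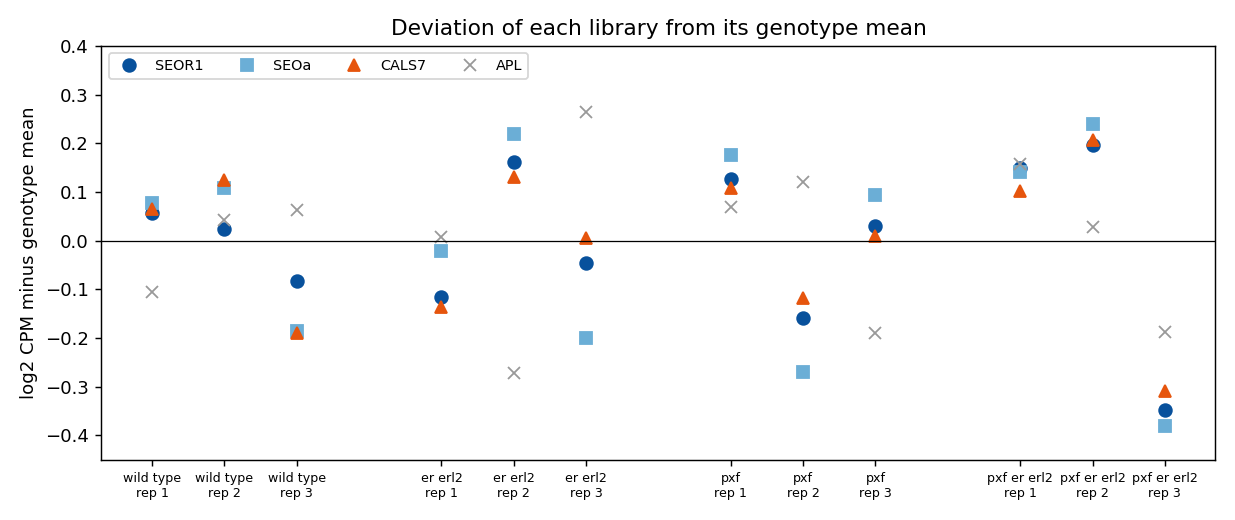
Log2 CPM of each library minus its genotype mean (y axis) for SEOR1, SEOa, CALS7 and APL, by library (x axis). SEOR1, SEOa and CALS7 sit close to each other in most libraries, lowest in pxf er erl2 replicate 3. APL lies on the other side of 0 from SEOR1 in all er erl2 libraries, in replicates 2 and 3 of pxf and in replicates 1 and 3 of wild type.

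Of 18354 other loci of at least 1 CPM on average, those most like each member by Pearson r over the 12 libraries were as follows. For SEOR1 they were CALS7 (0.995), COPT4 (0.990) and SSL1 (0.989). For CALS7 they were SEOR1 (0.995), AT4G19050 (0.991) and NIP6;1 (0.989), and for SEOa they were AT4G19050 (0.989), AT5G51110 (0.985) and SEOR1 (0.983). The structural genes thus stood near the top of each other's lists, with SEOa ranked 12 for SEOR1. For APL they were SCPL12 (0.981), MIR169m (0.980) and AT3G58720 (0.974), with SEOR1 ranked 294. The low-count members had lower top values, 0.959 for AT1G15290 and AT4G15960 and 0.956 for PSB29 with NAC045, and 0.947 for NS2, 0.941 for XTH10 and 0.938 for AT2G43610 with NAC086. NEN4 was most like AT5G49945 (0.911), AT1G28140 (0.901) and AT5G15880 (0.896), and no other member exceeded 0.480 with it.

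Among 11 other genes listed for sieve elements, 10 were tested, and RTM1 had no count in any library. Against wild type, er erl2 had 1 called higher and 1 lower, pxf had 3 higher and none lower, and the quintuple mutant had 5 higher and 1 lower. Of all tested loci, 10.3% were called higher and 8.44% lower in er erl2. The shares were 13.0% and 7.97% in pxf, and 19.9% and 16.4% in the quintuple mutant. These shares hold for every list counted against wild type below, and the er erl2 counts of this list were near them. The 6 calls in the quintuple mutant became 3 without its replicate 1. The list's median log2 fold change was -0.18, 0.58 and 0.69 in turn. ENODL9, an early nodulin-like protein of the sieve element membrane, rose in all 3 mutants, from 11.9 ± 2.65 CPM in wild type, with er erl2 at 25.7 ± 4.58, pxf at 41.5 ± 6.60 and the quintuple mutant at 63.6 ± 14.1 (SD, n = 3). Its log2 fold changes were 1.11 (SE 0.23, edgeR adjusted p = 0.00656), 1.80 (0.22, 0.000357) and 2.42 (0.22, 1.54e-05). The phloem sucrose synthases SUS5 and SUS6 were called higher in pxf er erl2, at 1.60 (SE 0.24, edgeR adjusted p = 0.000259) and 0.99 (SE 0.23, edgeR adjusted p = 0.00637). SUS5 was also called in pxf at 1.04 (SE 0.24, edgeR adjusted p = 0.00928), and neither was called in er erl2 (0.12 and -0.29). RTM2, which restricts long-distance movement of a plant virus, gave 0.78 in pxf over wild type (edgeR adjusted p = 0.0463), a call lost without any 1 of 8 libraries.

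The NEN family did not move as a unit. NEN3 fell in er erl2, from 15.0 ± 2.22 to 8.16 ± 0.938 CPM (log2 -0.88, SE 0.13, edgeR adjusted p = 0.000608), while pxf had 16.3 ± 1.71 and the quintuple mutant 16.9 ± 0.933. All 3 er erl2 libraries, from 7.11 to 8.91 CPM, lay below all others, the lowest of which was 13.2. NEN4 had the same order of groups at a far lower count. NEN2 averaged 2.30 ± 0.538 CPM in wild type, with er erl2 at 1.83 ± 0.786, pxf at 3.92 ± 0.548 and the quintuple mutant at 4.41 ± 0.419, a rise of 0.94 in the last (SE 0.27, edgeR adjusted p = 0.0170). The call for NEN2 ended without wild-type replicate 3 (0.0679) or pxf er erl2 replicate 1 (0.0555). NEN2 (AT5G61390) lies near PXY (AT5G61480), the locus mutated in both pxf lines. Of the 20 tested loci nearest NEN2, 8 were called in pxf against wild type, where 21.0% of all loci were. In pxf er erl2 against wild type 4 were called higher and 3 lower, where 19.9% and 16.4% of all loci were. A local effect at the mutated locus was not tested. NEN1 was lower in pxf er erl2 than in pxf (log2 -0.68, SE 0.20, edgeR adjusted p = 0.0493), a call lost without any 1 of 9 libraries.

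**Figure D4:**
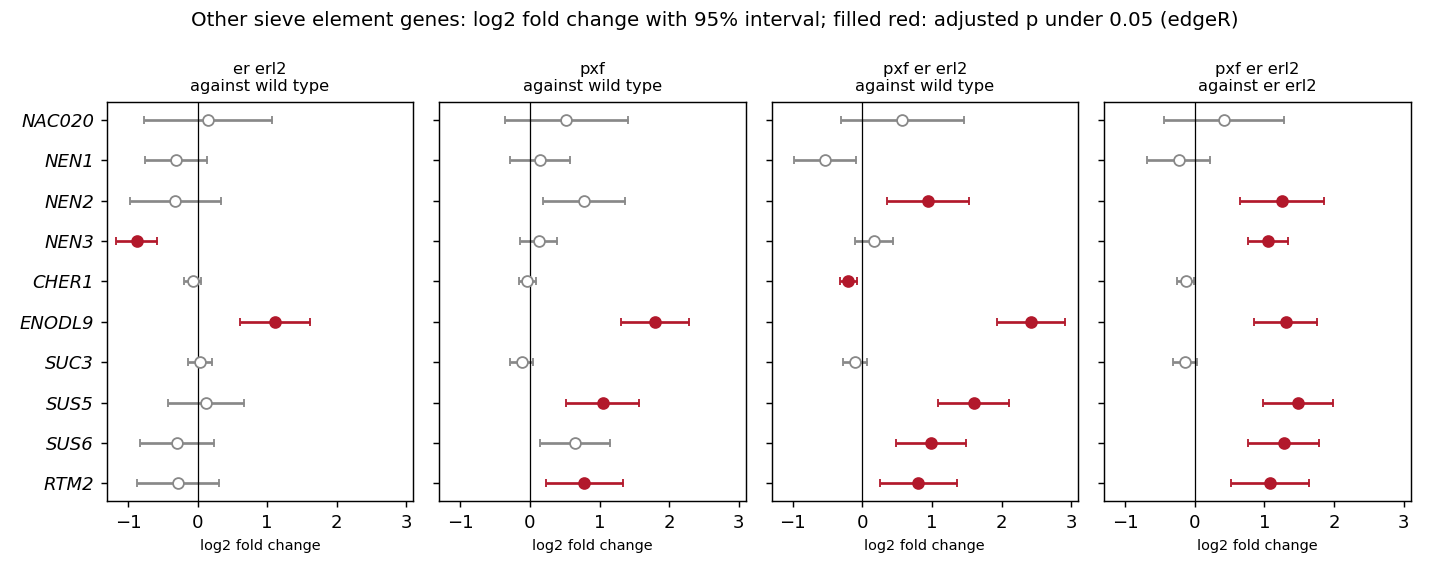
Log2 fold change (x axis) of 10 other sieve element genes (rows) in 4 comparisons, with 95% intervals; filled red points passed an adjusted p under 0.05 in edgeR. ENODL9 is filled and to the right of 0 in every panel, and NEN3 is the one point filled on the left in er erl2 against wild type.

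Genes that act early in the phloem lineage were a mixed group. Of 13 listed, 12 were tested (CLE45 had 4 counts in all), and against wild type er erl2 had 3 called higher and 1 lower, pxf had 6 and 1, and the quintuple mutant 6 and 2. The medians were 0.23, 0.31 and 0.33. HCA2, a Dof factor that promotes vascular tissue formation, had 5.78 CPM in wild type and rose to 13.3 in pxf and 18.3 with all 5 alleles (log2 1.2 and 1.66, edgeR adjusted p = 0.000169 and 3.71e-06). BRX, needed for protophloem continuity, rose by 1.01 and 1.19 in the same comparisons (edgeR adjusted p = 0.00681 and 0.00112). SMXL3 and SMXL4, which act redundantly in phloem formation, went opposite ways, SMXL4 by 0.77 and 0.98 and SMXL3 by -1.05 and -0.99 (edgeR adjusted p between 0.000618 and 0.00660). In er erl2 the called members were CLE26, a peptide gene, at 0.91, CVL1 at 0.59 and OPS at 0.45, all higher, and the Dof factor TMO6 at -0.59. CLE26 missed the threshold when replicate 1 of wild type, or 1 or 2 of er erl2, was left out (edgeR adjusted p from 0.0516 to 0.0659), and OPS without er erl2 replicate 2 or 3 (0.0507 and 0.0849).

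CALS7 did not share its change with the other callose synthases as a family. Of 11 listed, 10 were tested, and against wild type er erl2 had 3 called higher and none lower, pxf had 2 and 1, and the quintuple mutant 3 and 2. The medians were 0.09, 0.10 and 0.14, where CALS7 itself gave 0.39, 1.00 and 1.26. GSL11, at 40.4 CPM in wild type, rose to 64.4 in pxf and to 87.2 with all 5 alleles (log2 0.67 and 1.11, edgeR adjusted p = 0.000140 and 8.68e-07), and GSL04 gave 0.38 and 0.98 (edgeR adjusted p = 0.0175 and 1.03e-05). GSL06 fell from 245.8 to 151 and 121 CPM (log2 -0.70 and -1.02, edgeR adjusted p = 0.000149 and 2.62e-06). GSL02, known from the pollen wall, was lower in pxf er erl2 at -1.51 (edgeR adjusted p = 9.64e-05). GSL05, the wound callose enzyme, GSL08 and GSL10 were higher in er erl2 by 0.33, 0.25 and 0.21. The call for GSL10 ended when replicate 1 or 2 of wild type, or 2 or 3 of er erl2, was left out (edgeR adjusted p from 0.0742 to 0.122). That for GSL04 in pxf ended without replicate 1 of wild type or of pxf (0.0652 and 0.0569).

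A list of genes of companion cells, the partner cells of sieve elements, and of phloem transport gave a different sum from the 7 members in er erl2. In it, SULTR2;1, SWEET11 and SWEET12 are not markers of companion cells alone. Summed over the 9 listed companion cell genes, wild type ranged from 640 to 736 CPM, er erl2 from 529 to 558, pxf from 1051 to 1062 and the quintuple mutant from 1093 to 1234. The 7 sieve element members summed to 258 to 296, 376 to 448, 543 to 680 and 598 to 874 CPM. In er erl2 the companion list therefore lay below wild type in all libraries while the sum of the 7 members lay above it. Few genes carried these sums. SEOR1 and SEOa averaged 172 and 162 CPM in er erl2, and SULTR2;1 averaged 314 CPM in wild type and 216 in er erl2. The fall of the companion list in er erl2 thus rested largely on SULTR2;1. The 11 other sieve element genes summed to 206 to 212 CPM in wild type and 190 to 219 in er erl2, ranges that overlap. A rise in er erl2 was thus not shared by the sieve element genes as a whole. Of 6 genes of this list tested, er erl2 had none called higher and 2 lower than wild type, pxf had 4 higher and 1 lower, and the quintuple mutant had 5 higher and none lower. The medians were -0.25, 0.57 and 0.98. The sulphate transporter SULTR2;1 gave -0.54, 0.85 and 0.61, the phloem lectin PP2-A1 -0.22, 0.60 and 0.97, and the proton pump AHA3 -0.07, 0.74 and 1.43, all called except AHA3 in er erl2. PP2-A1 was no longer called in er erl2 without wild-type replicate 1 or 2 or any er erl2 replicate (edgeR adjusted p from 0.0508 to 0.136). The sucrose transporter SUC2 was the member called lower in pxf, at -1.14 (SE 0.25, edgeR adjusted p = 0.0111). SULTR1;3, SWEET11 and SWEET12 had too few counts for a test, and SWEET11 had none in pxf er erl2.

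Summed levels of the xylem and leaf lists also differed between genotypes, though the xylem ranges of wild type and er erl2 overlapped. The 14 xylem genes summed to between 1588 and 1777 CPM in wild type, with er erl2 at 1711 to 2847, pxf at 1253 to 1314 and the quintuple mutant at 1278 to 1359. Against wild type, er erl2 had 4 of the 14 called higher and none lower, pxf had 2 and 4, and the quintuple mutant had 3 and 3. Those totals of 4, 6 and 6 xylem calls fell to as few as 2, 1 and 2 when 1 wild-type library or 1 library of the mutant was left out. The 7 leaf genes, for chlorophyll-binding proteins and the small subunit of Rubisco, summed to 686 to 1065, 1765 to 1948, 2914 to 3987 and 3249 to 5208 CPM. That is the genotype order of the members, with 6, 6 and 7 of the 7 called higher than in wild type and none lower. Median sums of the early phloem, other sieve element, and endodermis and periderm lists rose in that order too. Reads from closely related members of these multigene families may be split between them in counting, so the calls for single leaf genes are uncertain. In each genotype the library with the lowest leaf sum was also the one with the lowest sum of members, replicate 3 in wild type, er erl2 and pxf er erl2 and replicate 2 in pxf. The library with the highest sum differed in wild type (replicate 1 for leaf, 2 for members) and in pxf (replicate 3 for leaf, 1 for members). None of the members, leaf genes or xylem genes was at 0 in a whole genotype. The part of leaf, xylem or companion cell transcripts in the members' differences was not tested.

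**Figure D5:**
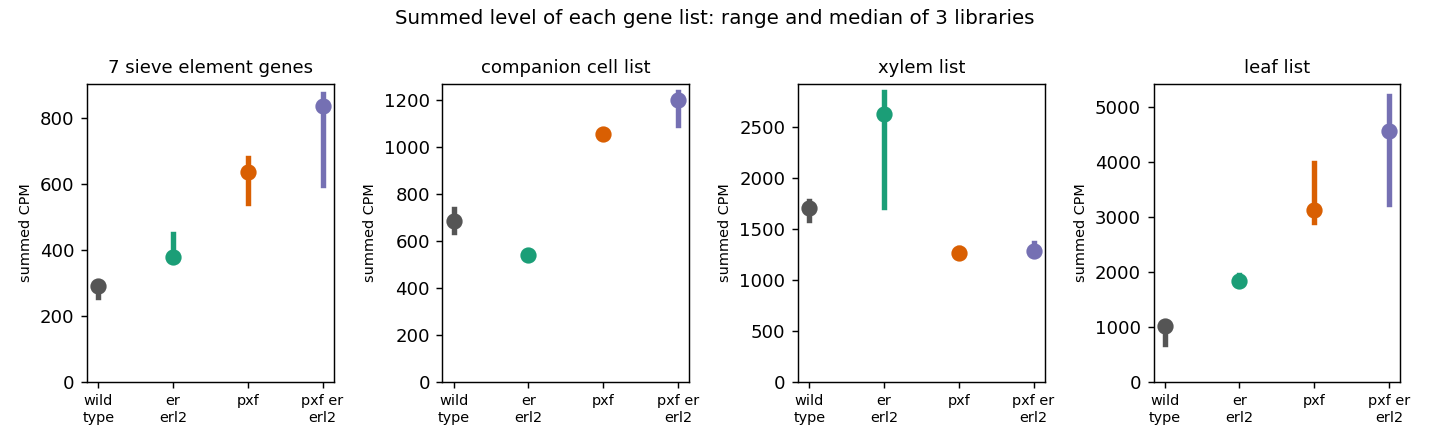
Summed TMM-scaled CPM (y axis, from 0) of the 7 sieve element genes and of the companion cell, xylem and leaf lists by genotype (x axis); points are medians and lines the range of 3 libraries. Members and leaf list rise in the same order of genotypes, the companion cell list is lowest in er erl2, and the xylem list is highest there.

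Loci next to the members were counted as well. Of the 20 tested loci nearest APL, 10 on each side, 10 were called in er erl2 against wild type in either direction, 5 of them higher, where 18.8% of all loci were called. In pxf against wild type 8 of them were called, all higher, where 21.0% of all loci were. Around CALS7 the counts were 2 and 3 of 20, around NEN4 3 and 5, around NAC045 0 and 2, around NAC086 8 and 5, around SEOR1 4 and 4, and around SEOa 3 and 4. APL was thus the member whose neighbours were called most often in these comparisons. In pxf against er erl2 the highest count was around NAC086, at 11 of 20, against 7 around APL. There, 5058 of all 19236 tested loci were called. SEOR1 and SEOa are neighbours, so their windows overlap. NAC045 alone overlapped another annotated locus, AT3G03190 on the opposite strand, which had no counts. Since the strand setting is not given, whether reads in the overlap were counted for NAC045 cannot be told.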

How the data were processed

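The authors deposited raw counts per locus for 12 libraries, 1 table each; reads were aligned with HISAT2 2.0.5 and counted with featureCounts 1.5.0-p3 on TAIR10, per the submitters' processing notes. Annotation, strand and multi-read settings are not given in the sources used here. Libraries were made from polyadenylated RNA with a NEBNext Ultra kit, per the labels' protocols. Groups came from the genotype labels.

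Counts were fitted with edgeR 4.0.16 in R 4.3.3 (filterByExpr at 10 counts, TMM, robust quasi-likelihood, a term per genotype), which kept 19236 loci holding 99.9% of counts. Tests were two-sided, with Benjamini-Hochberg adjustment over all tested loci and a threshold of 0.05, and intervals are at 95%. Values of single genes in CPM carry the TMM factors, with the SD over 3 libraries; correlations use log2 CPM with a prior count of 2. Scripts were tested on simulated data. Alternatives were RLE factors, library totals alone, no filter, DESeq2 1.42.0, only the groups compared, a replicate block and leaving out each library. Sequences were read from TAIR10.1 with Biopython 1.88; figures were drawn with matplotlib 3.10.9.

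The members and lists were chosen with earlier results of these data known, and lists were written from general knowledge. Of 84 listed genes, 81 had their name matched to the locus in the reference table; SEOc, PEAR1 and PEAR2 were left out. All members are named, with at most 4 called genes per list and contrast in order of size and the 3 loci most like each member. Any other gene was chosen after its values were seen.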

Additional observations from a re-analysis of the deposited data

Results flagged for a closer look

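By the interaction test in edgeR, the effect of er erl2 differed between the wild-type and pxf backgrounds for 7 genes of the phloem lists. They were 1 of 10 tested other sieve element genes, 1 of 12 early phloem genes, 2 of 10 callose synthases and 3 of 6 companion cell genes. Of all tested loci, 9.45% were called. None of the 7 sieve element members was called, a count that does not set them apart at that share. For NEN3, an exonuclease gene of the NEN family, the interaction was 0.93 on the log2 scale (adjusted p = 0.00736), with a fall of -0.88 in the wild-type background and a difference of 0.05 in the pxf background. The companion cell genes AHA3 (0.77), FTIP1 (1.07) and PP2-A1 (0.59) had positive interactions, as had the callose synthase gene GSL04 (0.52). Negative interactions were found for GSL02 (-1.33) and the phosphatase gene CVL1 (-0.56). The call for GSL04 ended without any 1 of 9 libraries (adjusted p from 0.0569 to 0.0754) and that for CVL1 without any 1 of 8 (0.0597 to 0.0904). With the replicate number as a block neither was called (0.0544 and 0.0596).

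For OPS, a gene of protophloem continuity, all er erl2 libraries lay above wild type, whereas all pxf er erl2 libraries lay below pxf, and the interaction was -0.55 (edgeR adjusted p = 0.0576). For GSL12 the pxf libraries lay above wild type and the pxf er erl2 libraries below er erl2, with an interaction of -0.28 (edgeR adjusted p = 0.0506). Neither passed the test, so these differences in direction are not shown.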

How the results depend on the processing

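Of 875 values of the members under the alternatives, 798 kept their direction and their side of the threshold, 58 missed the threshold they had passed, 11 passed it newly and 8 changed sign. The count of members called in er erl2 against wild type was 2, and 1 with no filter. With 1 library left out it ran from 0 to 3 in that comparison, from 4 to 5 in pxf against wild type, from 1 to 3 in pxf er erl2 against pxf, from 5 to 7 in pxf er erl2 against er erl2 and from 3 to 5 in pxf against er erl2, and it was 6 in pxf er erl2 against wild type and 0 in the interaction throughout. Signs changed only where a library was left out and the difference was not called: NEN4 ran from -0.26 to 0.56 in pxf against wild type and from -0.27 to 0.50 in pxf er erl2 against pxf, NAC045 from -0.027 to 0.24 in pxf against er erl2, and CALS7 from -0.24 to 0.0077 in the interaction; the cause was not tested. Of 1000 counts over the gene lists, 102 moved by over 1.5 times, 82 of them with a library left out.

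Replicate numbers did not pair the libraries: deviations correlated above 0.1 in 5 of 18 same-numbered pairs and 10 of 36 others. With the number as a replicate block, the counts against wild type were 3 for er erl2, 4 for pxf and 6 for the quintuple mutant, and otherwise 1 in pxf er erl2 against pxf, 5 in pxf er erl2 against er erl2, 5 in pxf against er erl2 and 0 in the interaction. The block moved no count of members by over 1.5 times; it ended the calls for NAC045 in pxf against wild type (adjusted p = 0.0574) and for NAC045 and NEN4 in pxf er erl2 against er erl2 (both 0.0584), and it added a call for CALS7 in er erl2 against wild type (0.0480). Depth limits NAC045, NAC086 and NEN4, which had at most 46 counts in any library.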

Other observations

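Gene lists for further cell types were counted alongside the sieve element genes. Cambium genes, 8 in all, summed to between 683 and 721 CPM in wild type, with er erl2 at 929 to 955, pxf at 573 to 594 and the quintuple mutant at 650 to 678, a sum that holds the mutated PXY itself. Against wild type, 6 were called higher and none lower in er erl2, 3 and 3 in pxf, and 4 and 3 in pxf er erl2. ANT, a gene of cambial growth, rose by 0.74, 1.11 and 1.06 on the log2 scale, whereas WOX14 fell in pxf (-0.99) and pxf er erl2 (-1.13).

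The 8 genes of endodermis and periderm summed to between 34.4 and 41.0 CPM in wild type, with er erl2 at 48.2 to 66.5, pxf at 73.1 to 106 and the quintuple mutant at 65.5 to 95.4. The 5 CASP genes were too low to test, and CASP5 had no count in wild type or pxf er erl2. All 3 tested genes, MYB36, ASFT and GPAT5, were called higher in pxf (1.27, 1.27 and 1.09) and in pxf er erl2 (1.5, 1.08 and 1.00).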
